A study of Homo sapiens with 6 samples.

Results

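Antigen presentation by class I molecules of the major histocompatibility complex (MHC) was examined here through 9 genes, HLA-B, HLA-C, HLA-E, HLA-F, B2M, TAP1, TAP2, TAPBP and NLRC5. They were taken by name, with earlier results of these data known, and each was read from the brightest probe set that names it alone. Of the 9 genes, 5 had such a probe set (B2M, TAP1, TAP2, TAPBP and NLRC5), out of 18404 genes on the array that did. HLA-B, HLA-C and HLA-F were named only on 4 probe sets that carry a pair of them, and HLA-E was not analysed here. In all, 13 of 32321 probe sets named a member. The tested cells were HaCaT keratinocytes carrying a lentiviral hairpin against TP63 for 72 hours (shTP63, 3 arrays), and the comparison cells were HaCaT cells given a control vector for as long (shControl, 3 arrays). HaCaT is a single, spontaneously immortalised human keratinocyte line, and TP63 encodes p63, a transcription factor of basal keratinocytes. The series was gathered to study p63 and the chromatin subunit ACTL6A in Hippo-YAP signalling, and the class I genes were not its stated subject. No label says that replicates came from separate cultures. The p-values therefore reflect how far these arrays scatter, and that scatter may be technical. TP63 itself was not analysed here, so each direction rests on the sample labels.

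Class I molecules show peptides from inside the cell to cytotoxic T cells. Proteasomes cut proteins into peptides, the TAP1-TAP2 transporter pumps them into the endoplasmic reticulum, and tapasin (TAPBP) holds an empty class I heavy chain beside the transporter until a peptide binds. The heavy chain generally reaches the surface paired with beta-2-microglobulin (B2M). Interferons raise most of these genes, NF-kappa-B adds to the heavy chain promoters, and NLRC5 is a coactivator that works with RFX and NF-Y factors at a shared promoter module. Epidermal keratinocytes carry class I molecules at rest and more of them in inflamed skin.

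The promoters of 7 of the 9 members were in the RefSeq table, and they are shown because most of the members that they belong to changed in the same direction. Each line gives the 200 bases before the annotated start on the strand of the gene, in GRCh38.p14. Capitals mark matches, on either strand, to 5 motifs: the interferon-stimulated response element (ISRE) core GAAANNGAAA, a tighter half-site pair GAANNGAAA, the cyclic AMP response element core TGACG, the CCAAT box bound by NF-Y, and an NF-kappa-B core GGGNNTTNCC. Matches that overlap run together.
HLA-B, chr6:31357180-31357379, minus strand: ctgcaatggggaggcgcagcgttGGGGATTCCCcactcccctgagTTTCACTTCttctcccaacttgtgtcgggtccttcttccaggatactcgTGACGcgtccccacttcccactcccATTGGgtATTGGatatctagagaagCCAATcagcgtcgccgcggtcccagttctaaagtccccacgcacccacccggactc
HLA-C, chr6:31272093-31272292, minus strand: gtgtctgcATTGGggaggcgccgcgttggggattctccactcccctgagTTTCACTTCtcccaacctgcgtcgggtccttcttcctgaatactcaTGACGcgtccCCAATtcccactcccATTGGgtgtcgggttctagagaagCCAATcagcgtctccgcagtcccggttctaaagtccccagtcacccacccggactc
HLA-F, chr6:29723234-29723433, plus strand: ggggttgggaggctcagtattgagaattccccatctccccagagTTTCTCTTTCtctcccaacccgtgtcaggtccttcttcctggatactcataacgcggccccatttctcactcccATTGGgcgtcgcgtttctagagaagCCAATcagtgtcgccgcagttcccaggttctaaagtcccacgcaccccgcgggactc
B2M, chr15:44711317-44711516, plus strand: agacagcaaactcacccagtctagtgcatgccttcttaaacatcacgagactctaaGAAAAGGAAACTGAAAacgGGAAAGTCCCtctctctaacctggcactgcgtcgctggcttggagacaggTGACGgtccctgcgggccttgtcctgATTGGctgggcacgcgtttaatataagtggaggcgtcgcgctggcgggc
TAP1, chr6:32853705-32853904, minus strand: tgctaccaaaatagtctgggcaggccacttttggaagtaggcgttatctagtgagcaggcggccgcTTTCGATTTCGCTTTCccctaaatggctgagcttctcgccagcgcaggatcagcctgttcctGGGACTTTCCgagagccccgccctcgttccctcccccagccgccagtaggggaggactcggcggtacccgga
TAP2, chr6:32838740-32838939, minus strand: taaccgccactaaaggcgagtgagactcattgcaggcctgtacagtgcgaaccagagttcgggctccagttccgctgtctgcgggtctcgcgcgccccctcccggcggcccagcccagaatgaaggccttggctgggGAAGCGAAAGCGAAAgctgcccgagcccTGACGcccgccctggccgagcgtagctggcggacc
TAPBP, chr6:33314079-33314278, minus strand: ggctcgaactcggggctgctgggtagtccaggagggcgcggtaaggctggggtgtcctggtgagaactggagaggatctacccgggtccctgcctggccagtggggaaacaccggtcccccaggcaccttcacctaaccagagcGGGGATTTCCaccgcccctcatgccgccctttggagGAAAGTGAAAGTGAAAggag

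The ISRE core matched in 5 of these 7 promoters (HLA-F, B2M, TAP1, TAP2 and TAPBP), against 2.4% of 35116 promoter windows of this length. In B2M, TAP1 and TAPBP it matched at 2 overlapping places. Counted from the annotated start, those began at -144 and -138 in B2M, at -134 and -128 in TAP1 and at -20 and -14 in TAPBP. The half-site pair matched in HLA-B, HLA-C and TAP2 (5.11% of all windows), beginning at -155 in HLA-B and at -151 in HLA-C. The NF-kappa-B core matched in HLA-B, B2M, TAP1 and TAPBP (4.28% of all windows). TGACG matched in HLA-B, HLA-C, B2M and TAP2 (18.4% of all windows), and CCAAT in HLA-B, HLA-C, HLA-F and B2M (28% of all windows), the short motifs being common. These matches describe letters in a window and show no binding.

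**Figure D1:**
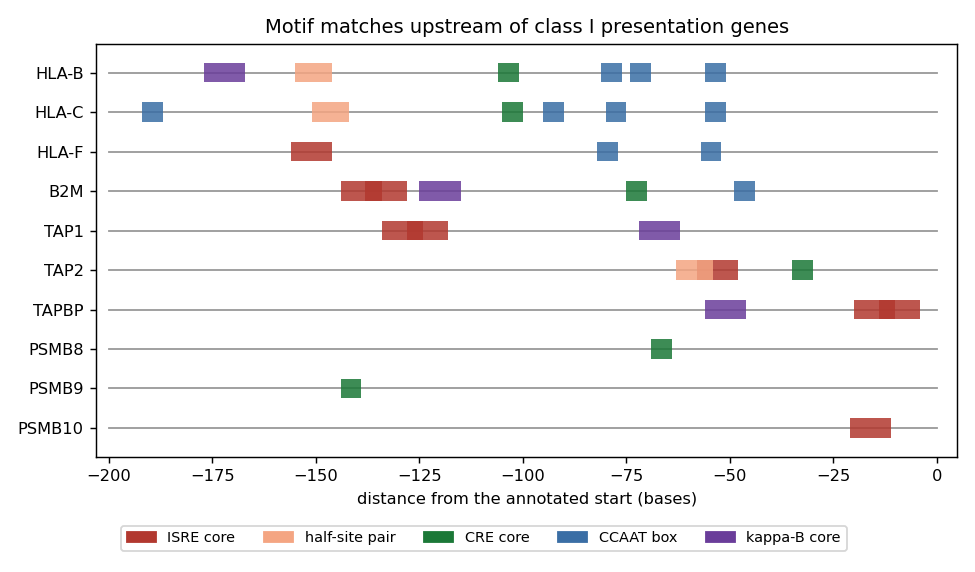
Motif matches in the 200 bases before the annotated start (x axis, distance in bases) of 7 members and, below them, of the immunoproteasome genes PSMB8, PSMB9 and PSMB10. Each bar is a match on either strand, coloured by motif, and the ISRE core is seen in 5 member promoters and in that of PSMB10.

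Class I heavy chain signal was higher in shTP63 on all 4 shared probe sets. Each probe set that pairs HLA-C with HLA-B rose by about the same amount. On probe set 8179731 the log2 intensity was 13.60, 13.60 and 13.53 in shTP63 and 13.19, 13.22 and 13.20 in shControl. The groups did not overlap, and the difference was 0.37 (95% interval 0.27 to 0.48), or 1.29-fold (limma adjusted p = 0.00106). On probe set 8178498 the values were 13.13, 13.17 and 13.04 in shTP63 and 12.68, 12.70 and 12.70 in shControl. The difference there was 0.42 (0.30 to 0.54), or 1.34-fold (limma adjusted p = 0.00107).

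One of the probe sets that pair HLA-F with HLA-B, 8117760, had the largest rise among the 13. HLA-F encodes a nonclassical class I molecule, one that varies little between people. On probe set 8117760 the log2 intensity was 9.87, 9.93 and 10.03 in shTP63 and 8.98, 9.04 and 9.09 in shControl. The difference was 0.91 (95% interval 0.77 to 1.05), or 1.87-fold (limma adjusted p = 0.000203). On probe set 8179019 the values were 10.54, 10.48 and 10.50 in shTP63 and 9.89, 9.97 and 9.97 in shControl, a difference of 0.57 (0.46 to 0.67), or 1.48-fold (limma adjusted p = 0.00033). Class I genes share much of their sequence, so none of these 4 values can be given to 1 gene, and transcripts of further class I genes may bind the same probes. All 4 rose, where 18.2% of all probe sets did. Each of the 4 names HLA-B, so they are not independent readings and the count overstates how many genes it covers.

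B2M, the light chain common to all class I molecules, rose with them. Its log2 intensity was 13.20, 13.08 and 13.05 in shTP63, against 12.76, 12.80 and 12.78 in shControl. Every shTP63 array lay above every shControl array. The difference was 0.33 ± 0.0509 (SE), or 1.26-fold with a 95% interval of 1.16 to 1.37 (limma adjusted p = 0.000704). The shTP63 arrays spread more (SD 0.0809, n = 3) than the shControl arrays (SD 0.0193, n = 3).

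Both subunits of the peptide transporter rose, by nearly equal amounts. TAP1 was at 11.66, 11.72 and 11.80 in shTP63, against 11.26, 11.22 and 11.30 in shControl (log2 intensity). The groups were separate, and the difference was 0.47 ± 0.0502 (SE), or 1.38-fold (95% interval of the difference 0.35 to 0.58, limma adjusted p = 0.000102). TAP2 was at 10.11, 10.27 and 10.31 in shTP63, against 9.70, 9.77 and 9.81 in shControl. Its difference was 0.47 ± 0.061 (SE), or 1.39-fold with an interval of 1.26 to 1.53 (limma adjusted p = 0.000287). TAPBP, which encodes tapasin, was at 13.0035, 13.0999 and 13.1112 in shTP63, against 12.7987, 12.7910 and 12.7864 in shControl. It rose by 0.28 ± 0.0456 (SE), or 1.21-fold with an interval of 1.13 to 1.30 (limma adjusted p = 0.00104). On the probe sets used, that was the smallest of the 4 rises among members with a probe set of their own. With all probe sets of a gene averaged it was the largest of the 4, at 0.48.

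NLRC5, the coactivator of class I promoters, did not pass the test. Its log2 intensity was 7.93, 8.04 and 7.94 in shTP63 and 7.97, 7.87 and 7.93 in shControl, so the groups overlapped. The difference was 0.05, with a 95% interval of 0.955- to 1.12-fold (limma adjusted p = 0.502). At this spread a change in signal of the size seen in TAP1 lies outside the interval, while a small one does not. The mean level of the NLRC5 probe set, 7.94, was lower than those of the 4 members that rose. A change in RNA may be compressed in a dimmer signal, so the interval holds for the signal only. The difference of NLRC5 was -0.06 with every array centred on its median and -0.05 after another quantile normalization, where it did not pass either.

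**Figure D2:**
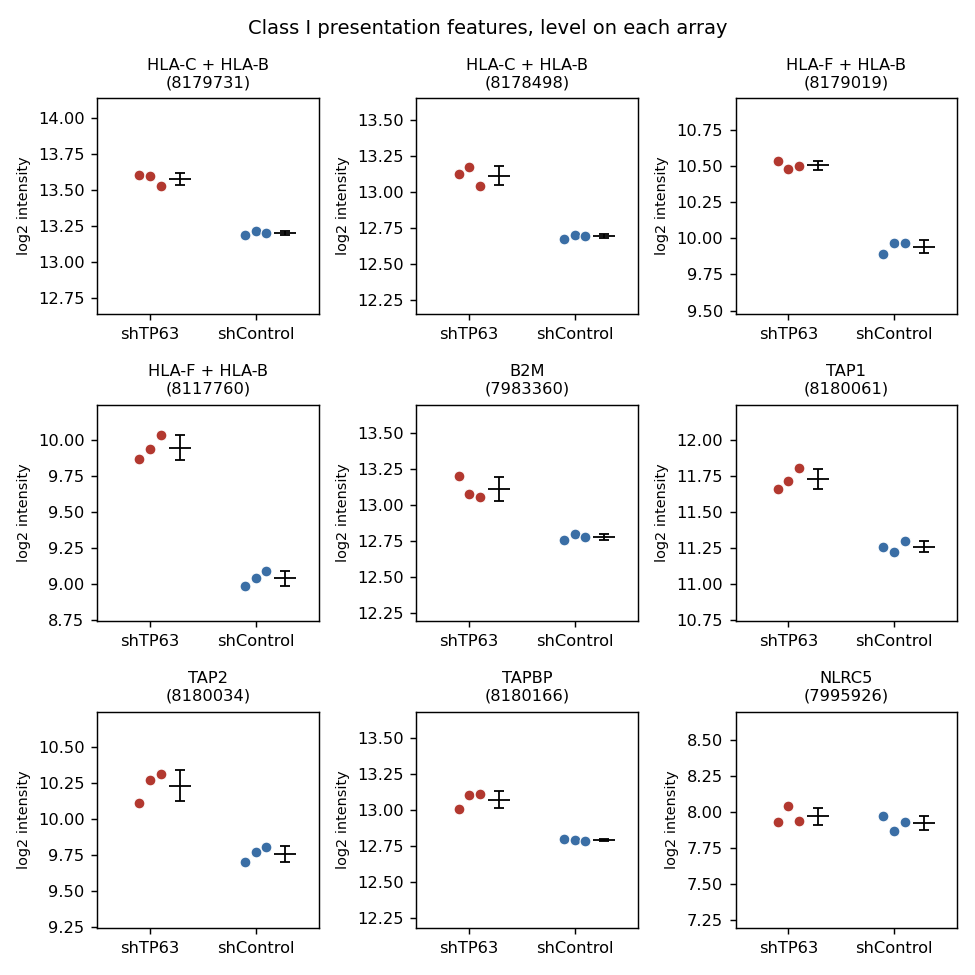
Log2 intensity (y axes, each spanning 1.5 units) of the 4 shared probe sets and the 5 members with a probe set of their own, 3 arrays per group, shTP63 in red on the left and shControl in blue on the right. Bars show mean and SD. The groups are separate in every panel except that of NLRC5.

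TAP2 and TAPBP each had 2 further probe sets, and these did not all move alike. For TAP2, probe set 8125483 had 8.91, 9.11 and 8.75 in shTP63 against 8.55, 8.61 and 8.55 in shControl, a rise of 0.35 (limma adjusted p = 0.0238). Probe set 8178841 had 3.75, 3.05 and 4.20 in shTP63 against 3.44, 3.52 and 3.92 in shControl. Its mean lay under 6.76, the 95th percentile of the levels of 340 olfactory receptor genes, which stood for background, and its difference was 0.04 (limma adjusted p = 0.936). For TAPBP the further probe sets had larger rises than the one used. Probe set 8178977 had 9.38, 9.30 and 8.88 in shTP63 against 8.60, 8.44 and 8.34 in shControl, a rise of 0.73 (0.40 to 1.06, limma adjusted p = 0.00723). Probe set 8125713 had 8.47, 8.47 and 8.45 in shTP63 against 8.05, 8.04 and 7.99 in shControl, a rise of 0.44 (0.34 to 0.53, limma adjusted p = 0.000555). With all probe sets of a gene averaged, TAPBP rose by 0.48 and TAP2 by 0.29.

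**Figure D3:**
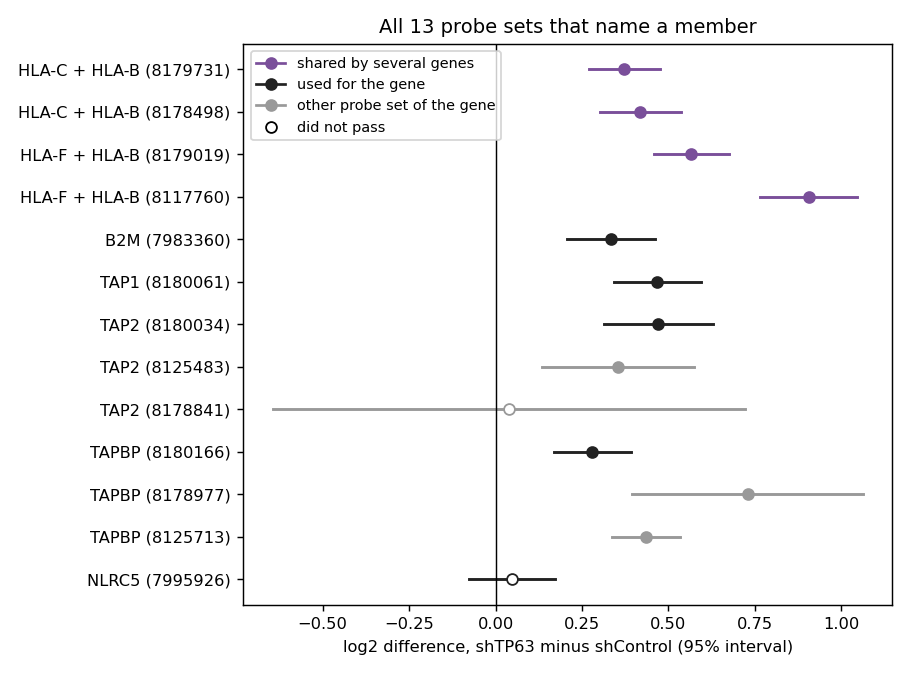
Log2 difference (x axis, shTP63 minus shControl, with 95% intervals) of the 13 probe sets that name a member, from the fit over all probe sets. The 11 filled points passed and lie right of 0; the open points are NLRC5 and the dim TAP2 probe set 8178841.

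Read against the array as a whole, 4 of the 5 members with a probe set of their own rose and 0 fell, where 16.4% of all genes rose and 25.1% fell. Their median difference was 0.33, and that of all genes was -0.01. In 4 of the 5 all shTP63 values exceeded all shControl values, as they did in 20.9% of all genes. The 4 that rose are among the brighter genes of the array, and in the top 1 of 5 equal classes of brightness 25.3% of genes rose, with a median difference of -0.10. The share of that class that fell was not counted, so counts of falls are set beside all genes only. Over all genes 3015 rose and 4619 fell, but with each array centred on its median 1782 rose and 7932 fell, and the median difference moved to -0.12. The 4 rises passed under each of the 5 scalings run, and in all 16 alternatives. The smallest values under a scaling came with that centring, where TAP2 and TAP1 rose by 0.36, B2M by 0.23 and TAPBP by 0.17.

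**Figure D4:**
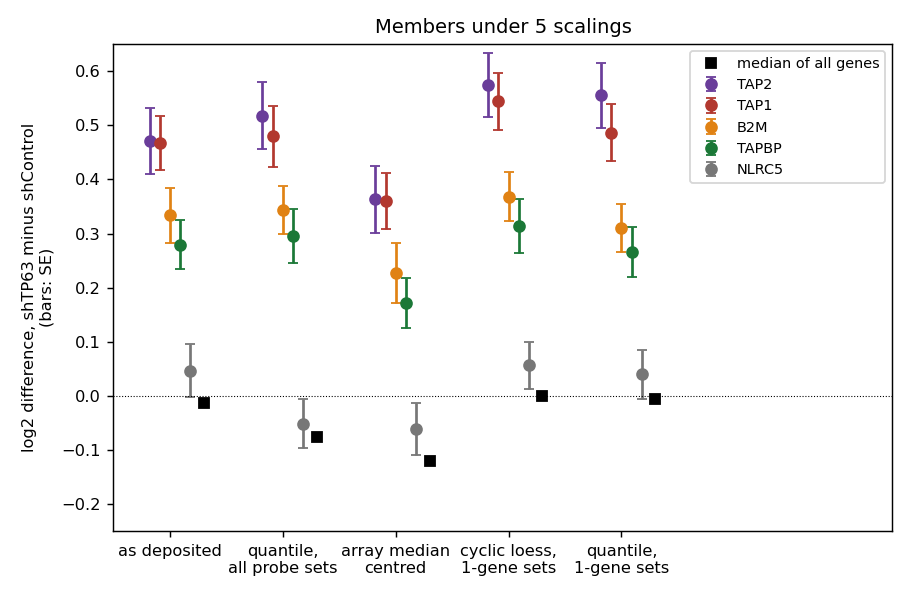
Log2 difference (y axis, shTP63 minus shControl, bars are SE) of 5 members under 5 scalings of the 6 arrays, with the median over all genes as black squares. TAP1, TAP2, B2M and TAPBP lie above the median of all genes under each scaling, and NLRC5 changes sign between scalings.

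Replicates of shTP63 did not order the members alike. In shTP63 replicate 1 B2M lay 0.09 above its group mean, while TAP1 lay 0.06, TAP2 0.12 and TAPBP 0.07 below theirs. Deviations in shControl were at most 0.06. The mean profile of the 5 members, each centred over the arrays, was 0.12, 0.18 and 0.18 in shTP63 and -0.17, -0.17 and -0.14 in shControl. The 5 genes closest to that profile among 18399 others, by root-mean-square distance over the 6 arrays, were ANO1, LRPAP1, SLC7A5, GPR161 and TSPAN14, at distances of 0.0102 to 0.014. Their differences were 0.30 to 0.33. With 6 arrays in 2 groups the distance is set mostly by the size of the difference between groups.

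Genes of peptide loading and of general quality control in the endoplasmic reticulum were higher in shTP63. PDIA3, also on that list of 9, was named only on 2 shared probe sets and was not measured here. All 8 measured genes of the loading and quality control list rose, against 16.4% of all genes, with a median difference of 0.34. Calreticulin, CALR, a chaperone of the loading complex, averaged 12.92 ± 0.0098 in shTP63 and 12.33 ± 0.0299 in shControl (log2, SD, n = 3 each), a rise of 0.58. HSPA5, the general chaperone BiP, averaged 13.11 ± 0.0252 in shTP63 and 12.55 ± 0.0482 in shControl, a rise of 0.56. UGGT1, which returns misfolded glycoproteins to calreticulin, rose by 0.45, and the glucosidase subunit GANAB by 0.40. TAPBPL, the tapasin relative that edits peptides, rose by 0.29 (named after its value was seen). Limma adjusted p ran from 1.19e-05 for CALR to 0.0037 for CANX, calnexin. CANX and PRKCSH lost their calls with arrays centred on their median (differences 0.10, adjusted p = 0.0925 and 0.0814), which left 6 of 8. Most of these proteins fold glycoproteins of every kind and are not particular to class I.

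The aminopeptidases of the endoplasmic reticulum, which trim peptides before they are loaded, rose: ERAP1 averaged 10.64 ± 0.0425 in shTP63 and 10.29 ± 0.0235 in shControl, and ERAP2 averaged 7.87 ± 0.0447 in shTP63 and 7.52 ± 0.048 in shControl (log2, SD, n = 3 each). The rises were 0.36 and 0.35 (limma adjusted p = 0.000209 and 0.000339). None of the other 7 measured trimming genes rose. IDE, an insulin- and peptide-degrading enzyme, fell by 0.32 (limma adjusted p = 0.000573) and TPP2, a cytosolic tripeptidyl peptidase, fell by 0.18 (limma adjusted p = 0.00802). In total 2 of 9 trimming genes rose and 4 fell, where 16.4% of all genes rose and 25.1% fell. The count of falls was 2 without shTP63 replicate 2, without shControl replicate 1 and with replicate numbers as blocks. It was 1 after cyclic loess, where TPP2 lost its call (difference -0.08, adjusted p = 0.133).

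The immunoproteasome did not rise with the class I genes. Of 7 immunoproteasome and activator genes 0 rose and 5 fell, against 25.1% of all genes that fell. Most of the 7 belong to the top class of brightness, whose median difference was -0.10 and whose share of falls was not counted. PSMB8, PSMB9 and PSMB10 encode the catalytic subunits that replace the constitutive ones when cells meet interferon. PSMB9 had 10.80, 10.77 and 10.79 in shTP63, against 11.03, 11.01 and 11.04 in shControl, and fell by 0.24 (limma adjusted p = 0.00123). PSMB10 had 8.85, 8.76 and 8.98 in shTP63, against 9.07, 9.23 and 9.13 in shControl, and fell by 0.28 (limma adjusted p = 0.00742, and 0.0617 in the unmoderated test). PSMB8 had 8.92, 8.91 and 8.91 in shTP63, against 9.04, 9.06 and 9.16 in shControl, and fell by 0.17 (limma adjusted p = 0.0154). In all 3 genes every shTP63 value lay below every shControl value. The share of all genes separated that way was not counted, so this separation cannot be weighed against the array as a whole. The activator subunit PSME1 fell by 0.21 (limma adjusted p = 0.00504). PSMB8 lost its call after cyclic loess (difference -0.09, adjusted p = 0.126), without shControl replicate 3 (-0.14, adjusted p = 0.0672) and after quantile normalization of single-gene probe sets (-0.09, adjusted p = 0.14). Counted after cyclic loess, 3 of the 7 fell. The constitutive catalytic subunits PSMB5 and PSMB7 fell by 0.38 and 0.41 (limma adjusted p = 0.000187 and 0.000415), while PSMB6 did not pass (difference -0.07, limma adjusted p = 0.217).

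TAP2, PSMB8, TAP1 and PSMB9 follow each other in that order among the protein-coding genes of chromosome 6, and TAP1 and PSMB9 start back to back on opposite strands. The log2 ratio of TAP1 to PSMB9 was 0.86, 0.95 and 1.01 on the shTP63 arrays and 0.23, 0.21 and 0.26 on the shControl arrays, which do not overlap. The ratio was higher by 0.71 in shTP63 (exact permutation test, two-sided, p = 0.1, the smallest that 3 against 3 arrays allow). The ratio of TAP2 to PSMB8 was 1.19, 1.36 and 1.40 in shTP63 and 0.66, 0.71 and 0.64 in shControl, higher by 0.65 in shTP63 (exact permutation p = 0.1). Neither of these 2 pairs, which were picked after their values were seen, could reach a p of 0.05, and the adjusted p was 0.1 for both. The ISRE core was found in the 200-base window of 1 of the 3 immunoproteasome catalytic genes, PSMB10, which fell. Of the 7 immunoproteasome and activator genes 2 had it, the other being PSME2, which did not pass. The TAP1 window, with its 2 overlapping ISRE matches, lies on the side of TAP1 that faces PSMB9. A match further than 200 bases from the PSMB9 start was not counted for PSMB9.

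Transcriptional regulators of class I and class II genes, read as 1 list, were mostly lower or did not pass. Of 16 measured regulators 1 rose and 8 fell, where 16.4% of all genes rose and 25.1% fell. Most of the 16 belong to the top class of brightness, whose median difference was -0.10. The share of that class that fell was not counted, so the falls may not be particular to this list. IRF9, a transcription factor of the type I interferon response, was the one that rose, by 0.27 (limma adjusted p = 0.00125). RFX5, which with NLRC5 binds the class I promoter module, averaged 10.11 ± 0.0389 in shTP63 and 10.38 ± 0.0399 in shControl (log2, SD, n = 3 each) and fell by 0.26 (limma adjusted p = 0.00134). The NF-Y subunits NFYB and NFYC fell by 0.51 and 0.36 (limma adjusted p = 0.000255 and 0.000231), whereas NFYA did not pass (difference 0.06). IRF1, an interferon-induced activator of class I and TAP1 promoters, averaged 10.61 ± 0.0622 in shTP63 and 10.86 ± 0.0583 in shControl and fell by 0.25 (limma adjusted p = 0.00377). CIITA, the class II counterpart of NLRC5, did not pass (difference 0.10, limma adjusted p = 0.279). The count of falls was 4 after cyclic loess and 11 with arrays centred on their median.

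Among interferon receptor genes and their proximal signalling, changes went both ways. IFNGR1, the ligand-binding chain of the interferon-gamma receptor, averaged 11.55 ± 0.0377 in shTP63 and 10.86 ± 0.0496 in shControl (log2, SD, n = 3 each), a rise of 0.69 or 1.61-fold (limma adjusted p = 9.39e-06). IFNAR2, a chain of the type I receptor, rose by 0.33 (limma adjusted p = 0.000345). JAK1, the kinase shared by these receptors, averaged 10.85 ± 0.0422 in shTP63 and 11.21 ± 0.0121 in shControl and fell by 0.36 (limma adjusted p = 0.000175). PTPN2, a phosphatase that restrains the pathway, fell by 0.36 (limma adjusted p = 0.000189). In that list of 13 genes 5 rose and 4 fell, where 16.4% of all genes rose and 25.1% fell. IFNGR2, the other chain of the interferon-gamma receptor, was among the rises at 0.12, but lost its call in 8 alternatives, among them without any 1 of 5 arrays, all but shTP63 replicate 3 (adjusted p 0.101 to 0.126). It was named after its value was seen. Of 8 interferon genes only IFNL3, an interferon-lambda gene, passed, with a rise of 0.22 (limma adjusted p = 0.0207), which was lost with arrays centred on their median (0.12, adjusted p = 0.132) and with replicate numbers as blocks (adjusted p = 0.0534). It was also lost without any 1 of 4 arrays, shTP63 replicates 2 and 3 and shControl replicates 2 and 3 (adjusted p 0.0539 to 0.0756). IFNL3 has a near-identical relative, so its value is uncertain, and 5 of the 8 interferon genes lay under the background level in both groups.

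Of 18 class I-like genes and ligands of natural killer cell receptors 9 rose, 2 fell and 7 did not pass, where 16.4% of all genes rose and 25.1% fell. With arrays centred on their median 6 rose, and without any 1 array other than shTP63 replicate 3 only 1 fell. HFE, a class I-like protein of iron control, had the largest rise, 0.66 (8.71 ± 0.0617 in shTP63, 8.05 ± 0.0664 in shControl, log2, SD, n = 3 each). PROCR, the protein C receptor, rose by 0.47, RAET1L, an NKG2D ligand, by 0.39 and MR1, which presents vitamin metabolites to T cells, by 0.35. Limma adjusted p for these 4 ran from 2.24e-05 to 0.000645. MICA, another NKG2D ligand, rose by 0.16 (limma adjusted p = 0.0399), a call lost with arrays centred on their median (0.05, adjusted p = 0.464) and without any 1 of 5 arrays, all but shTP63 replicate 2 (adjusted p 0.0685 to 0.115). MICB did not pass (difference 0.09, limma adjusted p = 0.204). RAET1 and ULBP genes resemble each other, so their separate values are uncertain.

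Class II genes, which present peptides taken up from outside the cell, had 5 rises and 0 falls among 10 measured, where 16.4% of all genes rose and 25.1% fell. Only 3 rose without shTP63 replicate 2, with arrays centred on their median or in the unmoderated test, and 1 fell with that centring. HLA-DOB, a modulator of class II peptide loading, averaged 7.51 ± 0.105 in shTP63 and 6.61 ± 0.0948 in shControl (log2, SD, n = 3 each), a rise of 0.90. Its shControl level lay under background, so the size is uncertain. HLA-DQB1 averaged 8.51 ± 0.0844 in shTP63 and 7.73 ± 0.0539 in shControl, a rise of 0.78. HLA-DPB1 rose by 0.40, a call lost in the unmoderated test (adjusted p = 0.0832). HLA-DQA1 rose by 0.26 with both groups under background, and its call was lost in 5 alternatives, among them with arrays centred on their median (0.16, adjusted p = 0.0742), without shTP63 replicate 2 (0.21, adjusted p = 0.0575) and without shControl replicate 3 (0.22, adjusted p = 0.0598). IFI30, a thiol reductase of the endocytic route named after its value was seen, rose by 0.16, a call lost with arrays centred on their median and without any 1 of 4 arrays, shTP63 replicates 2 and 3 and shControl replicates 1 and 2 (adjusted p 0.0508 to 0.0715). Limma adjusted p over the 5 rises ran from 1.19e-05 for HLA-DQB1 to 0.0203 for IFI30. Class II genes also vary between people and resemble one another, and HLA-DRA, HLA-DRB1 and CD74 were named only on shared probe sets.

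Ligands that restrain lymphocytes or phagocytes rose alongside the class I genes. Of 8 such genes 6 rose and 0 fell, where 16.4% of all genes rose and 25.1% fell, and their median difference was 0.51. Without shTP63 replicate 2, and with arrays centred on their median, 1 fell. PDCD1LG2, which encodes PD-L2, averaged 8.57 ± 0.032 in shTP63 and 7.23 ± 0.0678 in shControl (log2, SD, n = 3 each), a rise of 1.33 or 2.52-fold (limma adjusted p = 5.17e-07). CD274, which encodes PD-L1, averaged 7.17 ± 0.0175 in shTP63 and 6.15 ± 0.0932 in shControl, a rise of 1.02 or 2.02-fold (limma adjusted p = 2.9e-06), and its shControl level lay under background, so the size is uncertain. PVR, a ligand of the receptors TIGIT and CD226, rose by 0.59, and CD47, which restrains phagocytes, by 0.58 (limma adjusted p = 2.29e-05 and 3.8e-05). Over the 10 lists around the class I genes, 37 of 100 measured genes rose and 25 fell, the share that fell being near the 25.1% of all genes, against 16.4% that rose. The median of their differences was 0.06.

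**Figure D5:**
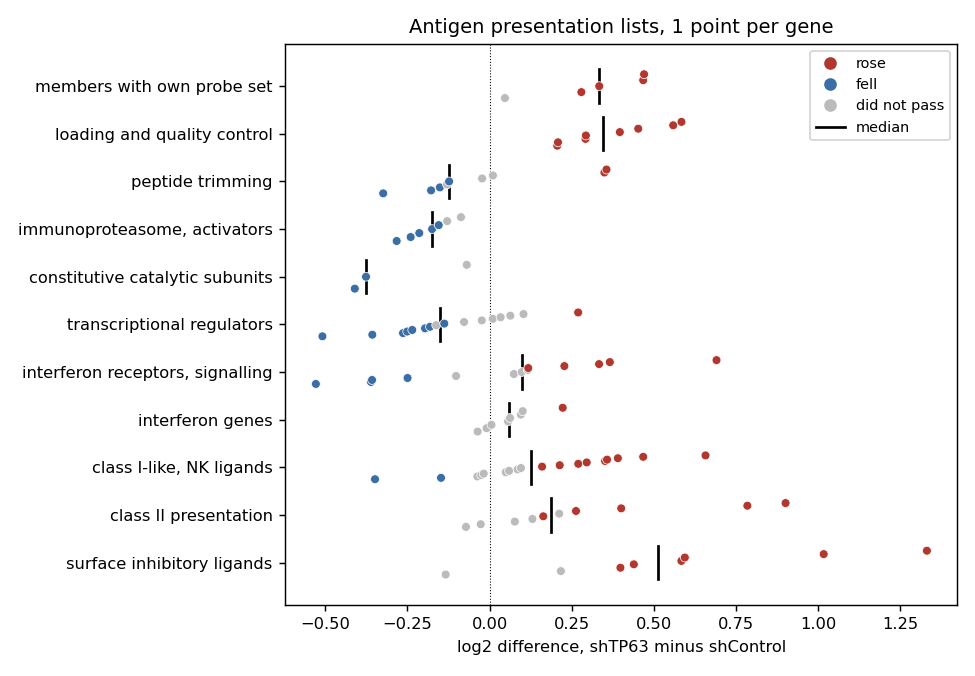
Log2 difference (x axis, shTP63 minus shControl) of each measured gene in the members' list and in 10 further lists, red where it rose, blue where it fell, grey where it did not pass, with a black bar at each list's median. The loading and quality control genes all lie right of 0 and the immunoproteasome genes all lie left of it.

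Markers of the labelled cell type were present on all arrays. All 9 measured keratinocyte markers lay above the background level. Of these 9, 4 fell and 1 rose, where 25.1% of all genes fell and 16.4% rose. KRT5 fell by 0.50, KRT14 by 0.35 and SFN by 0.60, while LAMB3 rose by 0.33. Their summed level, on the log2 scale, was 15.62 to 15.64 in shTP63 and 15.83 to 15.88 in shControl. Leukocytes carry more class I and class II RNA than most cells, so their markers and those of endothelium were read too. Of 16 measured, 10 lay under background in both groups, among them the leukocyte marker PTPRC (4.27 in shTP63, 4.31 in shControl). Above background in both groups lay CD68, CDH5, NKG7, CD8A, CSF1R and CD79A. CDH5 was at 9.57 in shTP63 and 9.5 in shControl, NKG7 at 7.78 and 7.68, and CSF1R at 7.12 and 7.11. CD68, known from macrophages and found in other cells, rose by 0.75. KLRD1 rose by 0.19 and VWF fell by 0.18, both under background in both groups, and the other 13 did not pass. That made 2 rises and 1 fall among the 16, where 16.4% of all genes rose and 25.1% fell. Of these markers 0 fell without shControl replicate 3 and 2 without shTP63 replicate 3. The summed level was 11.44 to 11.51 in shTP63 and 11.22 to 11.31 in shControl. Without CD68, left out after seeing the data, the sum of 15 markers was 10.94 to 11.0049 in shTP63 and 10.90 to 10.98 in shControl, and the groups overlapped. CD68 thus rose with the class I genes, and its part in their rise was not tested. In bulk RNA fewer cells of a type and less RNA per cell cannot be told apart. Array medians were 7.44 to 7.57 on the log2 scale, and across probe sets arrays correlated at 0.996 to 0.998 within a group and 0.988 to 0.991 between groups.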

How the data were processed

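RNA was measured on 6 one-colour arrays, 3 shTP63 and 3 shControl, grouped by their titles. The authors deposited linear-scale intensities, made with RMA in R 2.15.1 per the submitters' processing notes. RMA evens out differences shared by a whole array. Array medians were 173 to 190, so log2 was taken here, and every column was used. The design had planned for log2 values. Names came from the platform annotation, where 19158 probe sets name 1 gene, 1388 several and 11775 are unlisted. Names are those of that annotation, which can be old.

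The test was limma 3.58.1 (R 4.3.3), by lmFit then eBayes, two-sided and without covariates. P-values were adjusted over 18404 genes by Benjamini-Hochberg, with a threshold of 0.05. Shared and further probe sets came from the same fit over all 32321 probe sets, adjusted over those. With 3 arrays per group the median SE of a difference was 0.0531, and that number of arrays limits the precision. Named were all members, up to 4 genes of smallest adjusted p per list, 13 fixed genes and the 5 of closest pattern. The members and lists were chosen with earlier results of these data known. Alternatives changed the scaling, filter, probe set rule, prior, test, replicate block and arrays. Promoters came from RefSeq for GRCh38.p14. The array's own build: not given in the sources used here.

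Deviations of arrays with the same replicate number correlated at -0.15, -0.04 and 0.13 across genes, so the numbers were not treated as pairs.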

Additional observations from a re-analysis of the deposited data

How the results depend on the processing

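The rises of B2M, TAP1, TAP2 and TAPBP passed in all 16 alternatives run, and those of the 4 shared HLA probe sets in all 12 that could be applied to them. Cyclic loess, quantile normalization of single-gene probe sets and the mean per gene were not run for shared probe sets. The differences ranged from 0.36 to 0.54 for TAP1, from 0.29 to 0.57 for TAP2, from 0.23 to 0.37 for B2M and from 0.17 to 0.48 for TAPBP, and from 0.27 to 0.94 over the shared probe sets. The largest adjusted p was 0.0146, for TAP2. NLRC5 ranged from -0.06 to 0.07 and passed in none. With the replicate number as a block, 2832 genes rose and 4333 fell, and of the members with a probe set of their own 4 rose and 0 fell, as without it. With arrays centred on their median 1782 of all genes rose and 7932 fell. Of the other presentation genes 15 fell after cyclic loess and 35 with that centring, against 25 on the deposited scale. For both the cause was not tested. Dim probe sets such as 8178841 of TAP2 can carry a compressed change, and 3 arrays per group leave small differences undetected.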
